A study of Mus musculus with 4 samples.

Results

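Oxidative phosphorylation is carried by 5 protein complexes of the inner mitochondrial membrane, and the nuclear genes for their subunits were followed here in mouse pre-B cells. The genes were chosen by symbol (the Nduf, Sdh, Uqcr, Cyc1, Cox4 to Cox8 and Atp5 names) and by a level of 1 FPKM or more in at least 1 of 4 libraries. FPKM is a read count per transcript length and library size. Among the 23284 deposited symbols, 85 matched the names and 81 passed the level, of 11053 genes of any kind that passed it. The 81 genes comprised 35 of complex I, 4 of complex II, 9 of complex III, 15 of complex IV and 15 of complex V, and 3 that carry such a name without being a subunit. Those 3 are Cox4nb, a gene of the endoplasmic reticulum membrane complex, Atp5s, a coupling factor, and Atp5sl, an assembly protein of complex I.

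The libraries came from pre-B cells of the bone marrow of C57BL/6J mice, with 1 library per group. At steady state the marrow was wildtype (WT) or STAP-2 transgenic (Tg). At 1 month after transplantation (Tx) it was wild type or carried the STAP-2 knockout (KO). STAP-2 is an adaptor protein of cytokine and immune receptor signalling, and the study asked which pathways it regulates in B lymphopoiesis under haematological stress. The promoter that drives the transgene, the sort that defined the pre-B cells, the host mice, and the number of animals behind each library are not stated in the labels. Because every group is a lone library, the spread between mice is unknown and no p-value is given. The steady-state and the transplanted libraries also carry different codes in their titles, so transplantation and whatever the code marks cannot be told apart.

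Complexes I and II pass electrons from NADH and succinate to ubiquinone, complex III passes them on to cytochrome c, and complex IV passes them to oxygen. Complexes I, III and IV pump protons as they do so, and complex V, the ATP synthase, uses the returning protons to make ATP. The subunits of complexes I, III, IV and V are encoded partly in the mitochondrial genome and mostly in the nucleus, and many nuclear subunit genes are known targets of the transcription factors NRF1, GABP and YY1. In B cell development, large pre-B cells divide and respire more than the resting small pre-B cells that follow them. The mitochondrially encoded subunits are not analysed here.

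Promoter sequences are shown for 6 genes whose values are described below. Atp5g1, Atp5g2 and Atp5g3 encode the same mature protein, the c subunit of the ATP synthase ring, and differed between libraries in different ways. Ndufb7 and Ndufb6 were among the complex I genes with the largest ratios in the transgenic and in the labelled knockout comparison, and Atp5k had the largest of complex V in the latter. Each window runs 5' to 3' on the gene's strand from 250 bases before to 50 bases after the RefSeq start (build GRCm38), with capitals for any match to 3 short motifs. The motifs, sought on both strands, were GCATGCGC for NRF1, CCGGAAG for the ETS family that includes GABPA, and AAGATGGCG for YY1.
Atp5g1 (chr11:96075582-96075881, minus strand): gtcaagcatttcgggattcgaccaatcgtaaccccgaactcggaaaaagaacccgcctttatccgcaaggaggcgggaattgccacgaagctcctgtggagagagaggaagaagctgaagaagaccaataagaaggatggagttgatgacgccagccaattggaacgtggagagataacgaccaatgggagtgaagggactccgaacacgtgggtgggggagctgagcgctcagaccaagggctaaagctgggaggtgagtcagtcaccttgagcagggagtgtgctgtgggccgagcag
Atp5g2 (chr15:102670998-102671297, minus strand): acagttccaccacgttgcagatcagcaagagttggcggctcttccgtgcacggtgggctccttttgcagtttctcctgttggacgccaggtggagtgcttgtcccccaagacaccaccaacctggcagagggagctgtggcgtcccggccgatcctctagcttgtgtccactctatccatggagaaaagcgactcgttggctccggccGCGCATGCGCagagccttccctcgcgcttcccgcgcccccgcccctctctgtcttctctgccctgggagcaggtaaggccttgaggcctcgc
Atp5g3 (chr2:73911277-73911576, minus strand): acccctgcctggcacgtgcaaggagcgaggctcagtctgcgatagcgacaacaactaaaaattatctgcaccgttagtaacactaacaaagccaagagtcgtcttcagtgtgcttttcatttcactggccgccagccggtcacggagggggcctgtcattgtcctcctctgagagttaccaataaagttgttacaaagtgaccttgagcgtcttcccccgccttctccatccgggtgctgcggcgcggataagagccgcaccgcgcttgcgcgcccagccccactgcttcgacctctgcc
Atp5k (chr5:108434350-108434649, minus strand): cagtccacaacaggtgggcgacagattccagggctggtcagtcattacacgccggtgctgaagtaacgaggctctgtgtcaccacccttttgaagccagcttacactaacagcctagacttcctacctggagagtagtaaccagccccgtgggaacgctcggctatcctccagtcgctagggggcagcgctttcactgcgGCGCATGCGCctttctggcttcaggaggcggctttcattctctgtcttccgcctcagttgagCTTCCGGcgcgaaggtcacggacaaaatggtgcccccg
Ndufb6 (chr4:40279372-40279671, minus strand): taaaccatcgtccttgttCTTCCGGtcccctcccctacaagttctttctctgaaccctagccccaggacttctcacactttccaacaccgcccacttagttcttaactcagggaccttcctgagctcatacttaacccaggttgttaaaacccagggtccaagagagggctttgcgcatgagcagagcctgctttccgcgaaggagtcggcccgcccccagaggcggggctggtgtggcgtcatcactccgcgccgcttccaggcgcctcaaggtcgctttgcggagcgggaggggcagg
Ndufb7 (chr8:83566508-83566807, plus strand): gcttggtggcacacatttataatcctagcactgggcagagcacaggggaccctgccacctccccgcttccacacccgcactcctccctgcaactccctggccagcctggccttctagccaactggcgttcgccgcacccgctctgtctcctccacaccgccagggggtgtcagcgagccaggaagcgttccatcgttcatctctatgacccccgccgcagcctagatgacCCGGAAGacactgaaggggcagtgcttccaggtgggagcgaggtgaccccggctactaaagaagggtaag

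The NRF1 motif began 42 bases before the start of Atp5g2 on one strand and 40 bases before it on the other, as an overlapping pair. Atp5k held the same overlapping pair 50 and 48 bases before its start and an ETS motif 13 bases after it. An ETS motif began 20 bases before the start of Ndufb7 and 232 bases before that of Ndufb6. None of the 3 motifs was in the windows of Atp5g1 and Atp5g3, which says only that these letters are not in those windows. Windows were at hand for 65 of the 81 genes. The NRF1 motif was in 10 of them (15.4%), against 6.38% of the 8687 measured genes with a window and 3.05% of all 27025 windows. The ETS motif was in 16 (24.6%), against 22.3% of measured genes and 9.93% of all windows, and the YY1 motif in 8 (12.3%), against 4.02% and 1.64%. Any of the 3 was in 28 windows (43.1%), against 29.9% and 13.6%. By complex, the YY1 motif was in 5 of 31 windows of complex I and 2 of 13 of complex V, and in none of the 12 of complex IV, 5 of complex III or 3 of complex II. The messenger RNAs of the factors themselves were at similar levels in all libraries: Nrf1 lay between 29.0 and 34.3 FPKM, Gabpa between 26.8 and 30.3 FPKM, and Yy1 between 57.9 and 62.6 FPKM.

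The estimated depth was 7290000 to 8780000 reads per library, recovered from the steps that 1 read makes in the low FPKM values. Stap2 was at 0.21 FPKM in wild type and 0.54 FPKM in transgenic cells at steady state, was listed at 0 in transplanted wild type cells and was at 0.18 FPKM in the library labelled knockout. These levels check neither label, so the term "labelled knockout" is kept throughout. The 12 pre-B markers were present in every library, with summed levels of 6347 to 7232 FPKM, although Vpreb1 was at 7.31 FPKM in steady-state wild type cells against 30.2 to 38.6 FPKM in the others. Of the markers of other cells, 9 of 9 neutrophil and myeloid genes were measured in every library. Their summed level was 759.7 FPKM in wild type and 1822 FPKM in transgenic cells at steady state, and 1664 FPKM in wild type and 640.5 FPKM in labelled knockout cells after transplantation. Summed erythroid markers lay between 6.66 and 54.3 FPKM and summed plasma cell markers between 90.9 and 420.2 FPKM, both highest in steady-state wild type cells. Summed T and NK cell markers did not exceed 8.31 FPKM, with Ncr1 listed at 0 in 3 libraries, and summed monocyte and macrophage markers did not exceed 27.6 FPKM. In bulk RNA, fewer cells of a type and less RNA per cell cannot be told apart.

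The oxidative phosphorylation genes were abundant. Their summed level was 9306 FPKM in wild type and 10103 FPKM in transgenic cells at steady state, and 9254 FPKM in wild type and 10266 FPKM in labelled knockout cells after transplantation. Those sums made up 1.80%, 1.79%, 1.66% and 1.98% of the FPKM of all genes in the same order. Of the 80 genes above 0 in every library, 77 differed by less than 1.5-fold between their highest and lowest library, and the median of that ratio was 1.19. The same spread was not computed over all genes, so it is not read as a trait of this group. The median gene was at 91.8, 96.1, 84.4 and 96.0 FPKM in the same order of libraries. Complex V took 31.7% to 32.9% of the summed level, complexes I and IV between 25.7% and 26.6% each, complex III 11.7% to 12.7% and complex II 2.82% to 3.09%.

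**Figure D1:**
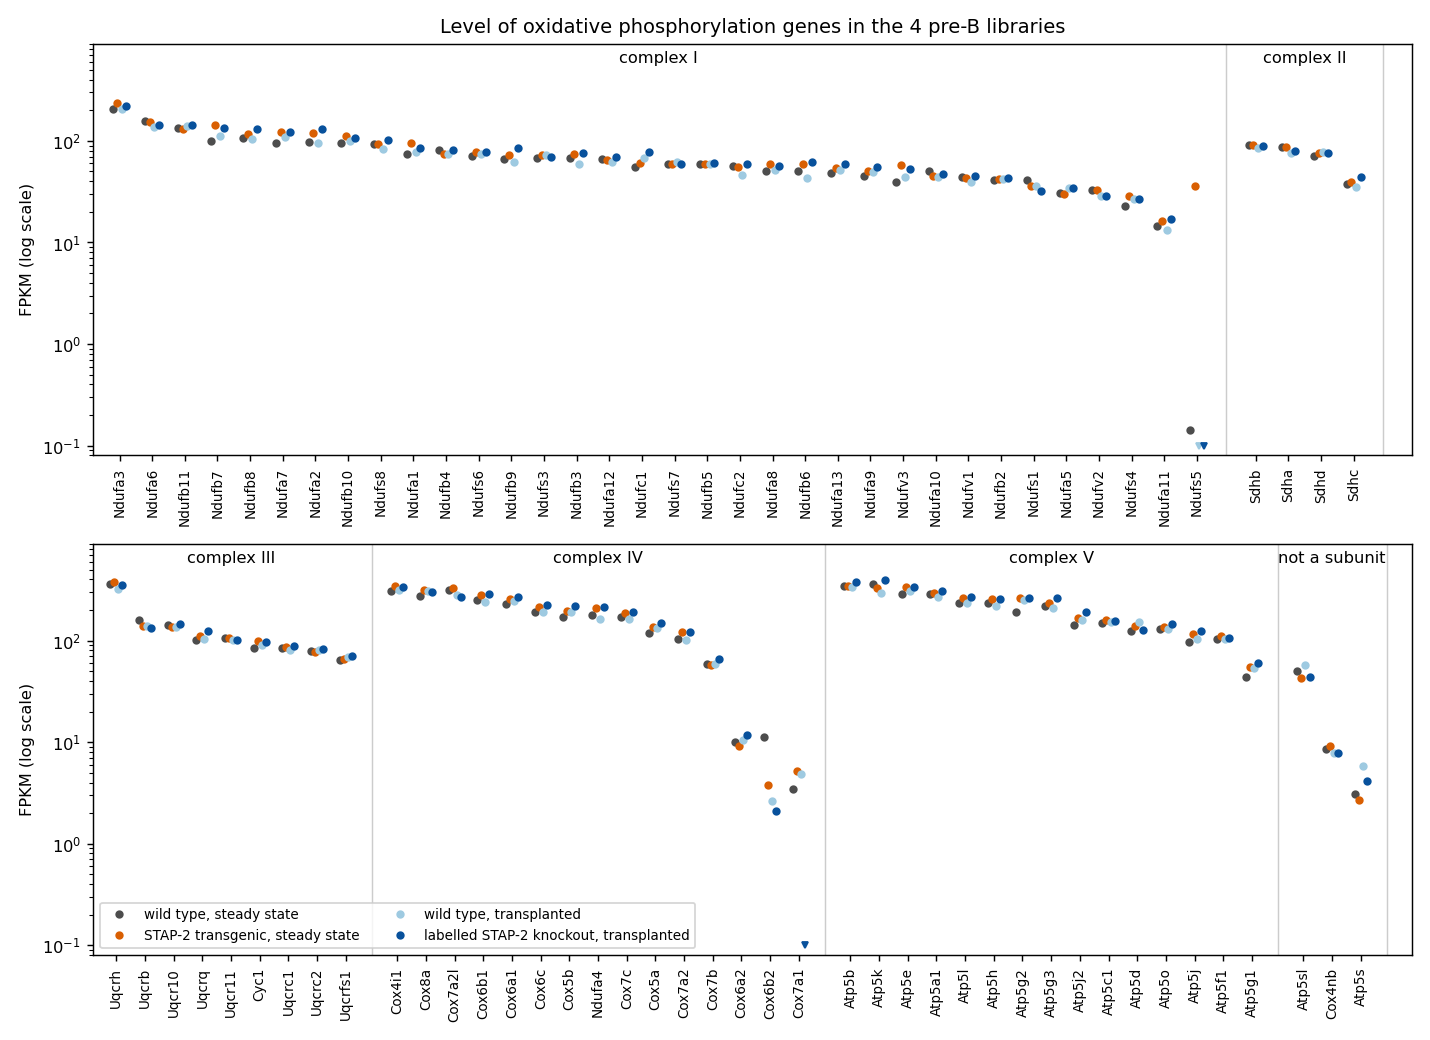
FPKM (log axis) of 80 of the 81 genes in the 4 libraries, ordered within each complex by mean level, with 1 point per library and no error bar because each group has 1 library. Triangles at the lower edge mark values below the axis. Most genes have 4 points close together, and Ndufs5, Cox6b2 and Cox7a1 are the genes whose points lie far apart.

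Levels within a complex spanned a wide range that was alike in all libraries. Uqcrh, the hinge protein of complex III, led that complex with 359.3, 380.1, 321.2 and 355.9 FPKM in wild type and transgenic cells at steady state and wild type and labelled knockout cells after transplantation, an order kept in every series of 4 values below. Uqcrfs1, the Rieske iron-sulfur protein, was the lowest of complex III at 64.1, 65.8, 68.9 and 71.1 FPKM. Ndufa3, a small accessory subunit, led complex I with 206.9, 233.9, 207.4 and 220.0 FPKM. Ndufa11, an accessory subunit of its membrane arm, was at 14.6, 16.3, 13.3 and 17.2 FPKM, the lowest of complex I apart from Ndufs5. The catalytic beta subunit Atp5b, at 345.4, 347.1, 338.9 and 376.5 FPKM, and Atp5k were the highest of complex V. In complex II the iron-sulfur subunit Sdhb was the highest in every library (84.4 to 91.8 FPKM) and the membrane anchor Sdhc the lowest (35.4 to 43.9 FPKM).

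Where a subunit has tissue-specific isoforms, the widely expressed form dominated. Cox4i1 was at 310.8, 342.0, 316.7 and 338.4 FPKM, while its isoform Cox4i2, known from lung, did not pass 0.50 FPKM in any library. Cox6a1 was at 227.6 to 266.0 FPKM and the heart and muscle form Cox6a2 at 9.15 to 11.7 FPKM. Cox7a2 was at 101.8 to 122.3 FPKM and the muscle form Cox7a1 at 5.21 FPKM or less. Cox6b1 was at 239.7 to 286.4 FPKM and the testis form Cox6b2 at 2.11 to 11.3 FPKM. Cox8a was at 275.3 to 312.3 FPKM, and the other forms Cox8b and Cox8c, like Cox7b2, were listed at 0 in every library. Cox4i2, Cox7b2, Cox8b and Cox8c are the 4 genes that matched the names and did not pass the level. The members with the lowest peak levels were Cox7a1, whose highest value was 5.21 FPKM, and Atp5s, at 5.85 FPKM, so none lay just inside the level of 1 FPKM.

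On the deposited scale, pre-B cells with the STAP-2 transgene had slightly more of most oxidative phosphorylation transcripts than wild type cells at steady state, which was not so with libraries set to equal sums. In log2(FPKM + 1), the unit of every difference here, which understates changes of low genes, 59 of 81 genes were higher in transgenic cells, against 46.8% of all genes tested. Their median difference was 0.10, against -0.02 over all genes. With libraries set to the same sum of all FPKM, the median of the 81 genes was -0.01 and that of all genes -0.13. That scaling moved the median of all genes by -0.11, and the distance of the 81 genes from it remained about as large. Rescaled by the median of gene ratios, the median of the 81 genes was 0.12, with 66 higher. By the upper quartile it was 0.15, with 70 higher, and with sums taken without the 100 highest genes 0.11, with 60 higher. All genes had 50.1%, 55.4% and 47.2% higher under these scalings. Only 2 of the 81 genes differed 2-fold or more, Ndufs5 and Cox6b2, against 1.86% of all genes. A 95% exact Clopper-Pearson interval of the ratio of FPKM was built from estimated reads and covers counting error only. It lay wholly above 1 for 20 genes (13.8% of all genes with a transcript length) and wholly below 1 for 4 (16.9%). Ndufs5, with less than 1 estimated read in wild type cells, is among the 20 and the 59. All gene ratios and intervals here are on the deposited scale and were not recomputed with equal sums. Equal sums divide transgenic values by 1.04 and steady-state wild type values by 0.96. That lowers every transgenic ratio, so lower bounds close to 1 depend on the scale.

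On the deposited scale, several accessory subunits of complex I were near the upper end of the transgenic comparison. Ndufb7, an accessory subunit on the intermembrane side, was at 100.3, 142.7, 111.5 and 135.3 FPKM. It was 1.42 times as high in transgenic as in wild type cells at steady state (interval 1.22 to 1.65), and both wild type libraries lay below both others. Ndufv3, a small subunit next to the NADH-oxidising site, was at 39.3, 58.4, 43.8 and 52.5 FPKM and 1.49 times as high (1.11 to 2.0), with the same order of libraries. Ndufa1, a short membrane subunit needed for assembly, was at 74.2, 96.1, 76.9 and 84.8 FPKM, again with both wild type libraries lowest. Its ratio was 1.29 (1.00 to 1.67). Ndufa7, at 96.1, 122.0, 109.2 and 121.4 FPKM, and Ndufs4, an accessory subunit mutated in Leigh syndrome, at 23.0, 28.8, 26.5 and 27.1 FPKM, were 1.27 (1.06 to 1.52) and 1.25 (1.06 to 1.48) times as high. In steady-state wild type cells both had their lowest value.

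Of the 28 accessory subunits of complex I, 21 were higher in transgenic cells with a median difference of 0.14, against 46.8% of all genes. With equal sums the median was 0.03 and 17 were higher, against 28.9% of all genes. The median stayed above 0 under every scaling. Without Ndufs5, 20 of 27 were higher on the deposited scale. The 7 nuclear core subunits, which carry the flavin and the iron-sulfur clusters, had 3 higher and a median close to 0, which changed sign with the scaling. Ndufs1, the largest core subunit with several iron-sulfur clusters, was at 41.3, 36.3, 36.0 and 32.2 FPKM, highest in steady-state wild type and lowest in labelled knockout cells. It was 0.88 times as high in transgenic as in wild type cells (0.79 to 0.98) and overlaps the genes Eef1b2 and Gm11602, so its reads may be shared. The flavoprotein Ndufv1 was at 44.3, 43.1, 39.0 and 45.1 FPKM, and its ratio of transgenic to wild type was 0.97, with an interval that included 1 (0.85 to 1.11).

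Ndufs5, an accessory subunit on the intermembrane side, stood apart from every other gene. It was at 0.14 FPKM in steady-state wild type cells, 36.1 FPKM in transgenic cells, 0.0025 FPKM in transplanted wild type cells and 0.020 FPKM in labelled knockout cells. The transgenic value was within the range of its complex, while the other 3 correspond to less than 1 read. Ndufs5 has near-identical copies in the genome, and values this low in libraries where all other complex I subunits were at 13.3 FPKM or more are uncertain. No ratio is therefore given, and without it the median of the remaining genes in the transgenic comparison was 0.10.

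Complex III had 5 of 9 genes higher and a median of 0.01, which was negative (-0.10) with equal sums. Cyc1, which carries the haem c1 of complex III, was at 85.2, 99.6, 90.1 and 97.2 FPKM, with both wild type libraries lowest, and 1.17 times as high in transgenic cells (1.06 to 1.28). Uqcrb, a small subunit near the ubiquinone site, was at 161.0, 137.6, 139.0 and 133.1 FPKM, highest in steady-state wild type cells and 0.85 times as high in transgenic cells (0.73 to 0.99). Complex IV had 12 of 15 genes higher and a median of 0.16, which was 0.04 with equal sums. The zinc-binding subunit Cox5b was at 168.9, 197.4, 189.7 and 218.7 FPKM and 1.17 times as high (1.06 to 1.29). Ndufa4, once counted to complex I and now to complex IV, was at 178.3, 211.2, 163.9 and 213.2 FPKM, with both wild type libraries lowest and a ratio of 1.18 (1.05 to 1.33).

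Cox6b2, the testis form of a subunit at the cytochrome c side, was at 11.3, 3.81, 2.63 and 2.11 FPKM. Steady-state wild type cells stood above the other 3 libraries. The ratio of transgenic to wild type was 0.34 (0.11 to 0.90), on about 17.2 and 5.77 estimated reads.

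Complex V had 14 of 15 genes higher in transgenic cells, with a median of 0.14. With equal sums the median was 0.02 and 8 were higher, against 28.9% of all genes. The 3 c subunit genes did not behave alike. Atp5g2 was at 191.1, 263.2, 249.1 and 259.8 FPKM. On the deposited scale it was low in steady-state wild type cells and even in the other 3 libraries. It was 1.38 times as high in transgenic as in wild type cells (1.25 to 1.52). Atp5g1, the least abundant of complex V, was at 43.7, 55.0, 53.6 and 59.7 FPKM, also lowest in steady-state wild type cells, with a ratio of 1.26 (0.99 to 1.61). Atp5g3 was at 221.0, 235.4, 207.8 and 261.0 FPKM with a ratio of 1.07 (0.97 to 1.17). The c subunit genes have near-identical copies among which the authors' counting could split reads. Of the catalytic F1 part and stalk, all 9 genes were higher, from 0.0073 for Atp5b to 0.27 for the coupling factor Atp5j, with a median of 0.08 smaller than the equal-sum shift.

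The library labelled knockout had more of most oxidative phosphorylation transcripts than transplanted wild type cells. Of the 81 genes 68 were higher, among them Ndufs5 with less than 1 read in both libraries, against 43.8% of all genes, and their median difference was 0.13, against -0.03 over all genes. The median was 0.23 with equal sums, against 0.06 over all genes, and stayed above 0 under every scaling. Cox7a1 alone differed 2-fold or more (1.8% of all genes did), and it was listed at 0 in the labelled knockout. The counting interval lay wholly above 1 for 27 genes (14.5% of all genes) and wholly below 1 for 4 (21% of all genes).

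Without Ndufs5, all 27 accessory subunits of complex I were higher in the labelled knockout, from 0.0025 for Ndufa5 to 0.49 for Ndufb6, with a median of 0.15. All 27 were higher under each rescaling of the libraries, and 24 were higher after a correction for level, transcript length and GC content. Ndufb6, an accessory subunit of the membrane arm, was at 51.1, 58.7, 43.5 and 61.4 FPKM and 1.41 times as high in labelled knockout as in transplanted wild type cells (1.15 to 1.74). Ndufb9, at 66.8, 73.3, 61.7 and 84.4 FPKM, was 1.37 times as high (1.16 to 1.62), and Ndufa2, at 98.2, 118.3, 95.6 and 130.2 FPKM, 1.36 times (1.16 to 1.59). In all 3 the transplanted wild type library was the lowest and the labelled knockout the highest. Ndufb3, also of the membrane arm, was at 67.4, 74.7, 58.9 and 76.4 FPKM and 1.30 times as high (1.10 to 1.53). Ndufb5 was the most even of the 81 genes, at 59.1, 59.6, 59.3 and 60.5 FPKM.

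The core subunits of complex I differed in both directions. Of the 7, 3 were higher in the labelled knockout, and their median was -0.04. It was 0.06 with equal sums, when the median of all genes was 0.06 as well. The iron-sulfur subunit Ndufs8 (93.6, 94.2, 83.2 and 101.5 FPKM) was 1.22 times as high (1.06 to 1.40) and Ndufv1 1.16 times (1.02 to 1.31). Ndufs1 was 0.89 times as high (0.80 to 1.00). Ndufs7, an iron-sulfur subunit near the ubiquinone site, was at 59.5, 58.8, 62.6 and 59.0 FPKM with a ratio of 0.94 (0.79 to 1.12).

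In complex II, the anchor Sdhc was at 37.5, 39.1, 35.4 and 43.9 FPKM and 1.24 times as high in the labelled knockout (1.13 to 1.36). The flavoprotein Sdha (86.6, 86.8, 76.4 and 80.0 FPKM), Sdhb (91.8, 90.5, 84.4 and 89.9 FPKM) and the anchor Sdhd (71.6, 76.0, 77.6 and 75.8 FPKM) had ratios of 1.05, 1.07 and 0.98 whose intervals included 1. Complex III had 8 of 9 genes higher with a median of 0.08. Uqcrq, which binds next to cytochrome b, was at 100.8, 112.0, 103.7 and 123.0 FPKM and had the highest ratio of that complex, 1.19 (1.09 to 1.29).

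Complex IV had 11 of 15 genes higher with a median of 0.16. Ndufa4 was 1.30 times as high in the labelled knockout (1.16 to 1.46). Cox8a and Cox7a2l went slightly the other way, with ratios of 0.97 each and intervals that included 1. Cox7a2l was at 315.5, 331.1, 279.1 and 269.6 FPKM, lower in both transplanted libraries. Cox7a1 was at 3.45, 5.21 and 4.89 FPKM in the other libraries, each on fewer than 7 estimated reads, so its 0 in the labelled knockout rests on few reads.

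Complex V had 14 of 15 genes higher in the labelled knockout with a median of 0.16, and 9 of them had intervals wholly above 1. All 6 genes of the membrane part were higher with a median of 0.23. Atp5k, the e subunit that helps synthase dimers form, was at 358.0, 331.5, 293.3 and 395.4 FPKM, lowest in transplanted wild type and highest in labelled knockout cells, with a ratio of 1.35 (1.18 to 1.54). Atp5g3 was 1.26 times as high (1.15 to 1.38) and Atp5g2 1.04 times (0.96 to 1.14), so the c subunit gene with the largest ratio was a different one in each genotype comparison. The alpha subunit Atp5a1 (289.1, 293.0, 270.3 and 306.9 FPKM) and Atp5b were 1.14 and 1.11 times as high, each with an interval wholly above 1 on 4300 to 6079 estimated reads per library. Atp5d, the delta subunit of the central stalk, went the other way at 125.1, 140.6, 153.7 and 127.5 FPKM, highest in transplanted wild type cells, with a ratio of 0.83 (0.75 to 0.91). Atp5d overlaps the gene Dos. Of the genes that are no subunits, Atp5sl (49.8, 42.9, 56.9 and 43.7 FPKM) was 0.77 times as high (0.68 to 0.87).

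**Figure D2:**
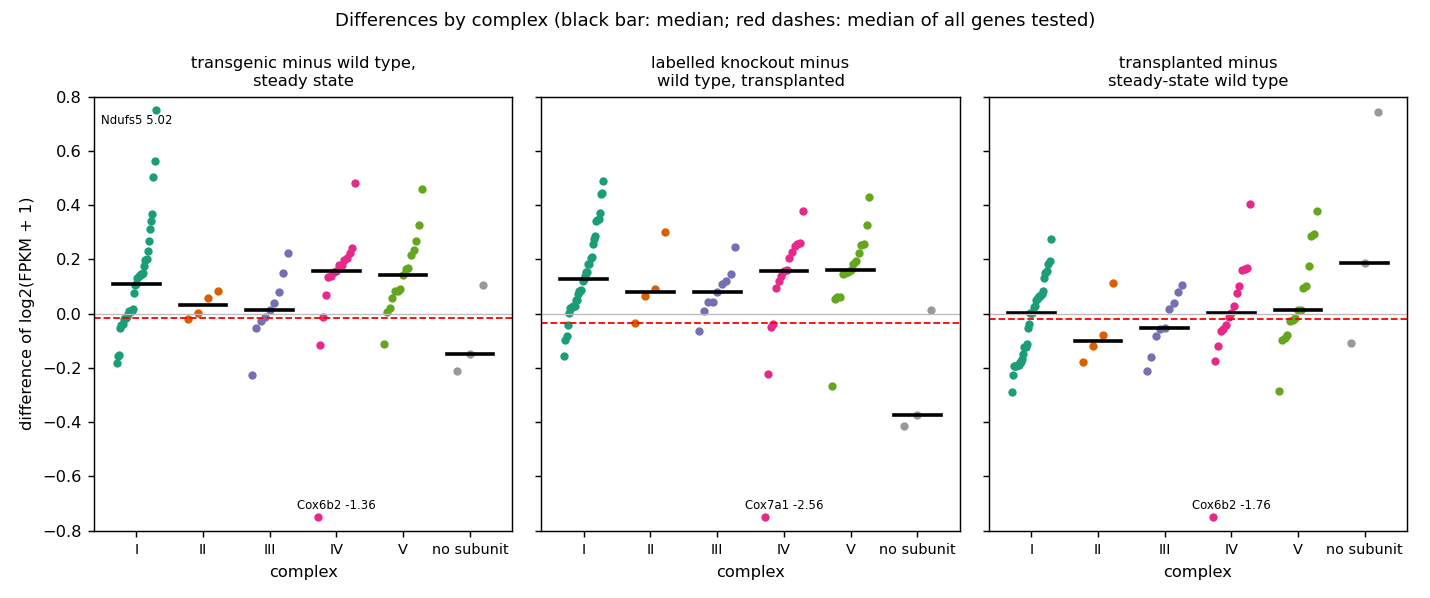
Difference of log2(FPKM + 1) of each gene by complex in the 3 comparisons, with the median of each complex as a black bar and the median of all genes tested as a red dashed line. Genes beyond the axis are drawn at its edge with their value, and there are no error bars because each group has 1 library. In the first panel the bars of complexes I to V lie above the red line (-0.02), with II (0.03) and III (0.01) nearest to it. In the second panel the bars of complexes I to V lie above it too, and in the third those of complexes I, IV and V lie close to 0. With libraries set to equal sums, the medians of complexes I, II and III in the first panel and of complexes I, IV and V in the third become negative, those of I and IV also with sums taken without the 100 highest genes. The medians of all genes tested with equal sums are -0.13, 0.06 and -0.12 in the order of the panels.

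Both genotype comparisons were read side by side, which is possible because they share no library. On the deposited scale 53 of the 81 genes (65.4%) were higher in both, against 23.7% of all genes. A further 7 were lower in both, 6 higher in transgenic and lower in labelled knockout cells, and 15 the reverse. The 53 include Ndufs5, which had less than 1 read in both transplanted libraries. With equal sums 38 genes were higher in transgenic cells, against 28.9% of all genes, so the count of 53 depends on the scale. Spearman's rho between the differences was 0.32 over the 81 genes and 0.15 over all genes, and Pearson's r over the 81 was -0.01, where Ndufs5, Cox6b2 and Cox7a1 lie far out. These are correlations across genes, which are not independent replicates. Intervals lay wholly above 1 in both comparisons for 8 genes, 9.88% of the 81 against 4.6% of all genes with a transcript length. They were 40% of those in the transgenic and 29.6% of those in the labelled knockout comparison: Atp5j, Atp5j2, Cox5b, Cox6b1, Ndufa2, Ndufa4, Ndufb7 and Uqcrq. These intervals are on the deposited scale, and transgenic lower bounds close to 1 depend on it. Intervals lay wholly below 1 in both for 2 genes, Atp5sl and Ndufs1, against 6.02% of all genes. The highest of the 4 libraries was the labelled knockout for 44 genes and the transgenic for 23, and the lowest was the transplanted wild type for 33 and the steady-state wild type for 32. These counts were not made over all genes and depend on the scale, so no result is read from them. The orders of libraries given for single genes describe the deposited scale only.

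**Figure D3:**
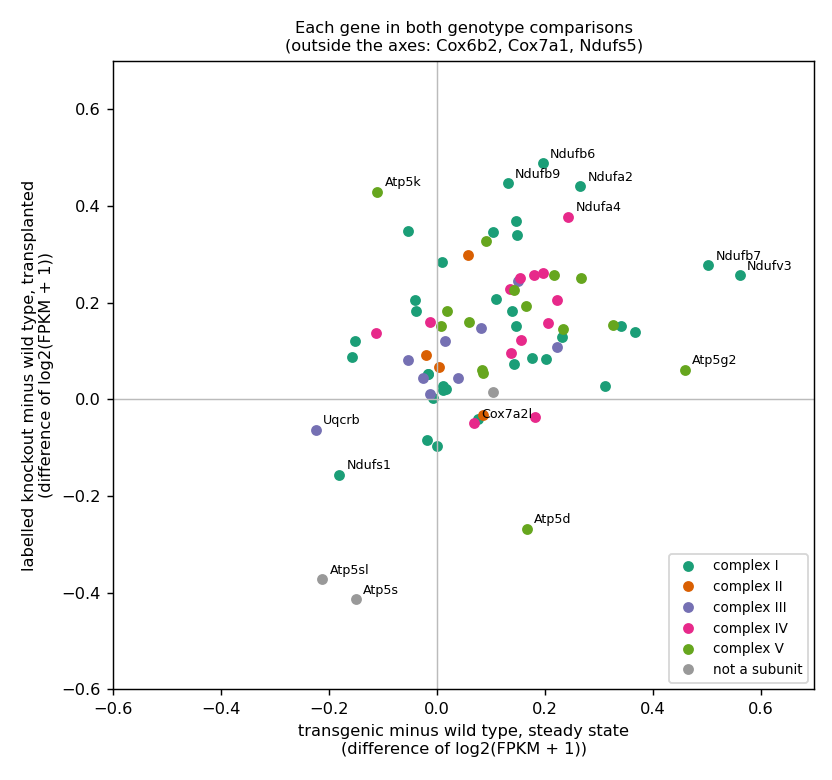
Difference of log2(FPKM + 1) of each gene in transgenic minus wild type cells at steady state (x axis) against labelled knockout minus wild type cells after transplantation (y axis), coloured by complex, without Cox6b2, Cox7a1 and Ndufs5, which lie outside the axes. Most points, 53 of the 81 genes, lie above 0 on both axes on the deposited scale; with equal sums the transgenic median of the 81 genes is -0.01.

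Between transplanted and steady-state wild type cells the oxidative phosphorylation genes were split almost evenly between higher and lower. Of the 81 genes 42 were higher after transplantation, against 45.9% of all genes, with a median of 0.0011 against -0.02 over all genes. With equal sums the median was -0.10 and that of all genes -0.12. This comparison uses the wild type libraries that serve as references in the other comparisons. Cox6b2 alone differed 2-fold or more (2.25% of all genes did), with a ratio of 0.23 (0.060 to 0.69). Intervals lay wholly above 1 for 7 genes (15.3% of all genes) and wholly below 1 for 8 (17.6%).

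On the deposited scale, intervals lay wholly above 1 for 8.64% of the 81 genes and wholly below 1 for 9.88%. Both shares were under those of all genes, 15.3% and 17.6%, so the genes below are described one by one without a result for the group. Higher after transplantation were Atp5g2, at a ratio of 1.30 (1.18 to 1.44), and Atp5d, at 1.23 (1.11 to 1.36). Atp5s was at 3.10, 2.69, 5.85 and 4.15 FPKM, higher in both transplanted libraries, with a ratio of 1.89 (1.19 to 3.07). Lower after transplantation were Atp5k, at 0.82 (0.71 to 0.95), Cox7a2l, at 0.88 (0.83 to 0.94), Sdha, at 0.88 (0.82 to 0.94), and Ndufs1, at 0.87 (0.78 to 0.97). Ndufc2, a membrane arm subunit, was at 57.1, 55.0, 46.6 and 59.6 FPKM, with a ratio of 0.82 whose interval included 1 (0.66 to 1.01). Of the 7 core subunits of complex I 3 were higher, with a median of -0.17 that was negative under every scaling.

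Among the 81 genes, transcript length moved with the differences in the genotype comparisons. The 81 transcripts are short, from 315 to 4942 nt with a median of 732 nt against 2580 nt for other measured genes, and 54 of them are under 1000 nt against 10.1% of others. In the transgenic comparison the 54 short members had a median of 0.15 and the 27 longer ones 0.02, and in the labelled knockout comparison 0.15 and 0.06. In the transplantation comparison they were -0.0050 and 0.0011. Other genes also fell off with length in the transgenic comparison, from a median of 0.06 under 700 nt to -0.06 at 5000 nt or more. They did so less in the labelled knockout comparison, from 0 to -0.05, and from 0.02 to -0.06 in the transplantation comparison. Spearman's rho between length and difference over other genes was -0.112, -0.028 and -0.105 in that order. Within the bin under 700 nt the medians were 0.15 for the 37 members against 0.06 for 472 other genes in the transgenic comparison, and 0.15 against 0 in the labelled knockout comparison. After a trend of level, length and GC content over all genes was subtracted, the median of the 81 genes was 0.08 in the transgenic and 0.09 in the labelled knockout comparison.

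**Figure D4:**
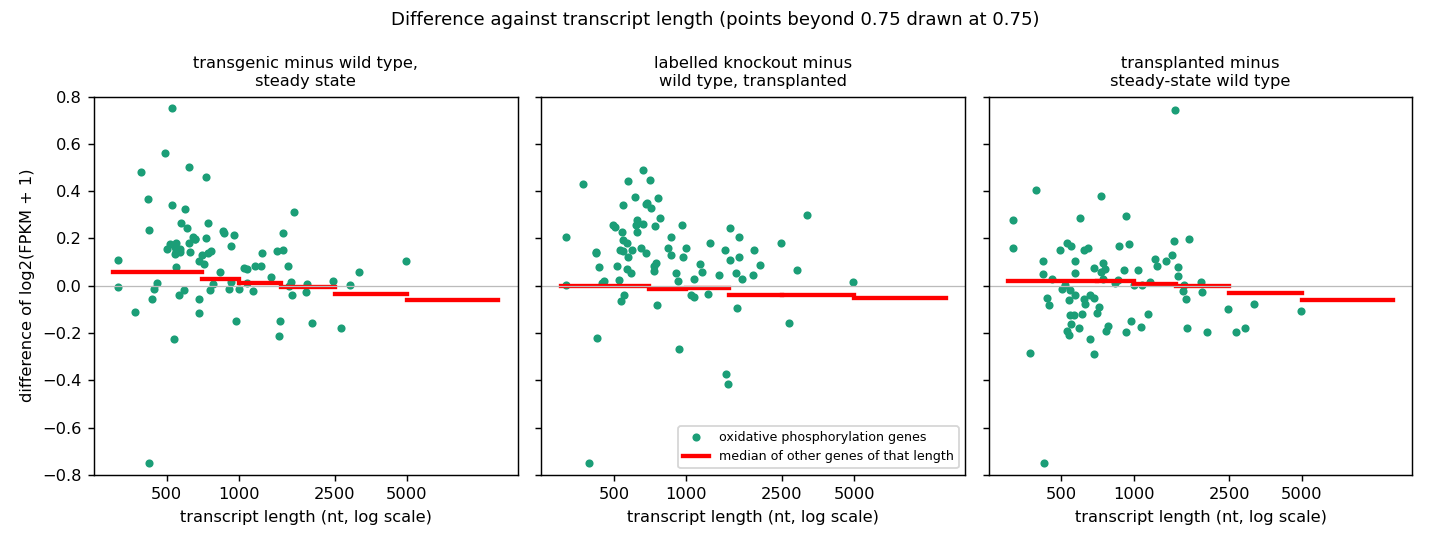
Difference of log2(FPKM + 1) of each oxidative phosphorylation gene (points) against its transcript length in nt (log axis), with the median of other genes in each length bin as a red line, in the 3 comparisons. Points beyond 0.75 are drawn at 0.75. In the first 2 panels most points under 1000 nt lie above the red lines, and in the third they lie on both sides. With libraries set to equal sums the points and lines of a panel shift together.

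Other mitochondrial genes were summarised on the same scale. The 28 measured assembly factors had medians of 0.06 in the transgenic, 0.02 in the labelled knockout and 0.10 in the transplantation comparison, with 17, 15 and 18 genes higher. Their largest differences were those of Nubpl, which inserts iron-sulfur clusters into complex I, at 0.69, 2.09, 3.40 and 1.99 FPKM, and of Ecsit, at 34.6, 23.2, 26.4 and 31.7 FPKM. Genes of cytochrome c and the quinone pool (13 measured) had medians of 0.03, -0.02 and 0.04, and 16 genes of the tricarboxylic acid cycle and pyruvate oxidation 0.02, 0.02 and -0.01. Cytochrome c itself, Cycs, was at 22.5, 25.6, 23.1 and 27.2 FPKM, with both wild type libraries lowest. The 76 mitochondrial ribosomal protein genes had 50, 52 and 49 higher with medians of 0.08, 0.08 and 0.06, and 20 import genes medians of 0.03, 0.05 and 0.10. With libraries set to equal sums, the transgenic medians of these 5 lists were negative (-0.09 to -0.03), the labelled knockout medians positive (0.08 to 0.18), and the transplantation medians between -0.12 and 0.0027. In the same order, the medians of all genes were then -0.13, 0.06 and -0.12. The transgenic and labelled knockout medians of the 5 lists lay above those of all genes.

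Of 17 measured regulators of these genes and of the mitochondrial genome, 4 were higher in transgenic cells, 8 in labelled knockout and 10 in transplanted wild type cells, with medians of -0.03, -0.08 and 0.04 that were -0.15, 0.01 and -0.06 with equal sums. Myc, a driver of growth and mitochondrial gene programmes, was at 10.8, 12.9, 38.0 and 17.2 FPKM, high in transplanted wild type cells, a difference of 1.73 from steady state. Tfam, which packages and transcribes mitochondrial DNA, was even at 18.3, 18.2, 17.9 and 19.8 FPKM.

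The library differences seen here were accompanied by larger ones in other gene groups. All 15 mitosis genes were higher in transgenic cells, with a median of 0.33, and in labelled knockout cells, with a median of 1.00, and all 15 were lower in transplanted than in steady-state wild type cells, with a median of -0.34. The 9 neutrophil and myeloid markers were higher in transgenic cells (median 1.16) and in transplanted wild type cells (1.19) and lower in the labelled knockout (-1.46). Cytosolic ribosomal protein genes, which are short and abundant as well, had 74 of 77 higher in transgenic cells (median 0.12) and 9 of 77 higher in labelled knockout cells (median -0.11), medians that were 0.0020 and -0.0053 with equal sums. In the transgenic, labelled knockout and transplantation comparisons the 81 oxidative phosphorylation genes had medians of 0.10, 0.13 and 0.0011. With equal sums these were -0.01, 0.23 and -0.10, and the mitosis medians were 0.21, 1.10 and -0.45. The part of any of these other gene groups in the results above was not tested.

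**Figure D5:**
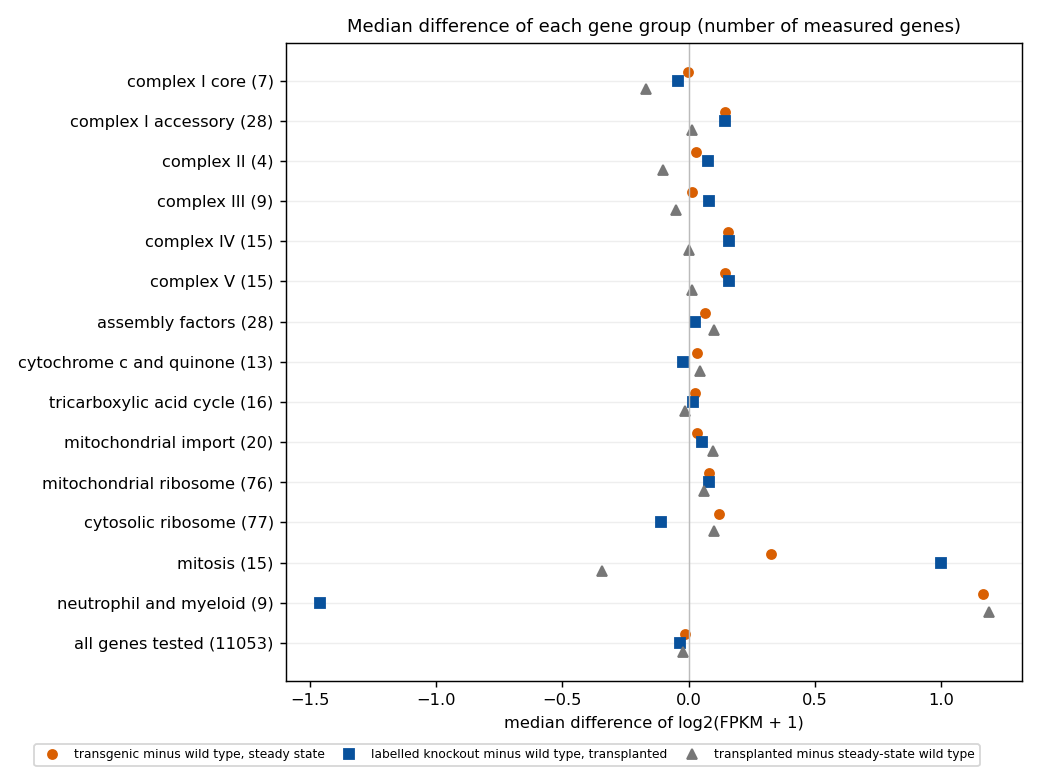
Median difference of log2(FPKM + 1) of each gene group (number of measured genes in brackets) in the 3 comparisons, 1 symbol per comparison, with no error bars because each group of samples has 1 library. The complexes lie within 0.2 of 0, while mitosis genes and neutrophil and myeloid markers lie far out. With libraries set to equal sums the transgenic medians of complexes II and III, assembly factors, cytochrome c and quinone, tricarboxylic acid cycle, mitochondrial import and mitochondrial ribosome turn negative. The labelled knockout medians of the complex I core, of cytochrome c and quinone and of all genes tested turn positive. The transplantation medians of complex I accessory subunits, complexes IV and V, cytochrome c and quinone, mitochondrial import and both ribosomes turn negative. The medians of all genes tested are then -0.13 (transgenic), 0.06 (labelled knockout) and -0.12 (transplantation).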

How the data were processed

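RNA came from a miRNeasy extraction and TruSeq stranded mRNA libraries, per the labels' protocols. The submitters' processing notes name Cufflinks 2.2.1, TopHat2 2.0.13, Bowtie2 2.2.3, SAMtools 0.1.19 and the build mm10, without role or order. The deposited values are read as FPKM because of Cufflinks and their dependence on length; the headers name no unit, and whether the authors scaled libraries to each other is not given in the sources used here. Cufflinks divides reads between overlapping and near-identical genes, so 14 members with near-identical copies and 24 that overlap another gene are less certain.

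Differences were taken as log2(FPKM + 1), with a pseudocount of 1, over genes reaching 1 FPKM in any of the 4 libraries (Python 3.11.15, pandas 2.3.3). Reads were estimated from FPKM, transcript length minus 215 nt, and depth. Of low values in genes with 1 transcript, 72.9% to 77.7% lay within 0.1 read of a whole number. A depth fixed beforehand gives 20% by chance. Depth and the 215 nt were chosen to make the share largest, so 20% is not its chance level. The shortest RefSeq-linked coding transcript of GENCODE (GRCm38) was used, and the intervals were tested on simulated data. Those reads were drawn with the depths, lengths and counting error that the intervals assume, so the simulation does not test these assumptions. Without molecular identifiers, reads are no count of independent molecules. Of the symbols, 20911 matched the annotation directly, 1901 by synonym and 472 not. Promoters are RefSeq's. Named genes are, in each comparison, the 6 highest and 6 lowest members at 5 FPKM or more, the extremes of each complex, members at 2-fold or more, complex II, isoform sets and up to 3 genes per other list. Others named in the text were chosen after their values were seen. The values of 1 member are not reported here by name. Members and lists were chosen with earlier results of these data known.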

Additional observations from a re-analysis of the deposited data

How the results depend on the processing

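Of 69 recomputed medians, 12 had the other sign, 8 of them with libraries set to the same sum of all FPKM and the other 4 for the 81 genes or a subset of them in the transplantation comparison, where the median was 0.0011 on the deposited scale. With libraries set to the same sum of all FPKM, the transgenic comparison had a median of -0.014 over the 81 genes and -0.0088 in complex I. Of the 81 genes 38 were then higher, against 28.9% of all genes. All genes then had medians of -0.13, 0.06 and -0.12 in the transgenic, labelled knockout and transplantation comparisons. The same scaling gave medians of 0.23 in the labelled knockout and -0.10 in the transplantation comparison. In the latter 19 genes were higher, against 31.4% of all genes. In the transgenic comparison, upper-quartile scaling gave 0.15, the median of gene ratios 0.12, and sums without the 100 highest genes 0.11. The cause was not tested. Without the 100 highest genes in the sum, the share of the 81 genes was 2.52%, 2.74%, 2.49% and 2.80% for wild type and transgenic cells at steady state and wild type and labelled knockout cells after transplantation. Without small RNA and Gm-numbered genes it was 1.95%, 2.09%, 1.90% and 2.16%. Leaving out Ndufs5, the genes that are no subunits, or those overlapping another gene was chosen after seeing the data. No paired analysis was possible because each group has 1 library and no test was made. Depth limits the low members: Ndufs5 and Cox7a1 rest on few reads or none.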
